A study of Arabidopsis thaliana with 3 samples.

Results

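The 34 Arabidopsis genes described here make ethylene, perceive it, carry its signal to the nucleus or answer it there. They were picked by locus and known role, and all 34 have a probe among the 25665 loci on the array. They comprise 8 ACC synthase genes (ACS), 3 ACC oxidase genes (ACO), 5 receptor genes, CTR1, EIN2, EIN3, EIL1, EBF1, EBF2, RTE1, ARGOS, ARL and 9 ethylene response factor genes (ERF). Of the 34, 31 could be tested.

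RNA came from whole Arabidopsis thaliana seedlings of the Col-0 background, grown for 10 days on agar medium with 1% sucrose at 23 °C in long days. One genotype carried 35S:AtIBH1-SRDX, called IBH1-SRDX below, and the other was wild type (wt). IBH1 is a helix-loop-helix protein that restrains cell elongation, SRDX is a short plant repression domain, and the viral 35S promoter is active in most plant tissues. The 2 genotypes were hybridised against each other on 3 Agilent 2-colour arrays, 1 for each biological replicate, with IBH1-SRDX in Cy3 on arrays 1 and 3 and in Cy5 on array 2. The sources used here do not say how many independent transgenic lines the seedlings represent.

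Ethylene is made from S-adenosylmethionine in a pair of dedicated steps. ACC synthase forms the precursor ACC, and ACC oxidase turns ACC into the gas. In air the receptors keep the kinase CTR1 active, and CTR1 holds EIN2 inactive. Ethylene switches the receptors off, EIN2 then stabilises the transcription factors EIN3 and EIL1, and these switch on ERF genes. In seedlings the hormone is known for shortening the hypocotyl and root in the dark and for acting with jasmonate in defence.

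Each gene's value is the log2 of its IBH1-SRDX signal over its wild-type signal, as the mean over the arrays ± the standard error of limma (SE), with n = 3 arrays unless stated. A gene is called higher or lower at a Benjamini-Hochberg adjusted p below 0.05 over all 19875 tested loci. The authors' deposited values, used below as an alternative, lay lower than the scanner software's log ratios by a constant. Their median over all loci was -0.15, and calls gained or lost with them include that shift. Intensities are normalised log2 fluorescence of 1 probe and are compared only between genotypes for that probe. Between 58.8% and 63.5% of spots stood well above background in a channel and no spot was saturated, and precision is limited by having 3 arrays. Log ratios of 2 arrays correlated across loci, which are not independent replicates, with r between 0.808 and 0.884. The IBH1 probe gave -0.88, -0.60 and -0.67 on the arrays, lower in the RNA labelled IBH1-SRDX, and the SUPERMAN probe gave 8.06, 8.42 and 7.87. The sources used here do not place these probes relative to the transgene, so every direction rests on the labels. The tissue markers looked up were detected in at least 1 genotype, with all 12 root, 10 xylem and 8 green tissue genes passing the filter on dim probes.

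The ERF genes rose together, while synthesis genes went both ways and among the genes between receptors and ERF genes EIL1 and EIN2 were lower. Of the 31 tested members 21 were called, against 38.4% of all tested loci in either direction. They were 13 higher in IBH1-SRDX, against 18.6% of all tested loci, and 8 lower, against 19.9%, with 10 not called. With both genotypes required above background, 28 members were tested. Of these 13 were higher and 5 lower, against 18.4% and 20.2% of all loci tested that way. All 8 tested ERF genes were among the 13, and the other 23 tested members had 5 higher, 8 lower and 10 not called. At least 2-fold higher were 8 members, against 3.09% of all loci, and at least 2-fold lower was 1, against 2.13%. The lower one, ACS4, passed the filter on dim probes only through wild type, where it was higher. It had no value with both genotypes required above background. The median ratio was 0.12 over the tested members, 0.01 without the ERF genes and 0.00 over all tested loci. In whole seedlings, fewer cells of a type and less RNA per cell cannot be told apart.

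**Figure D1:**
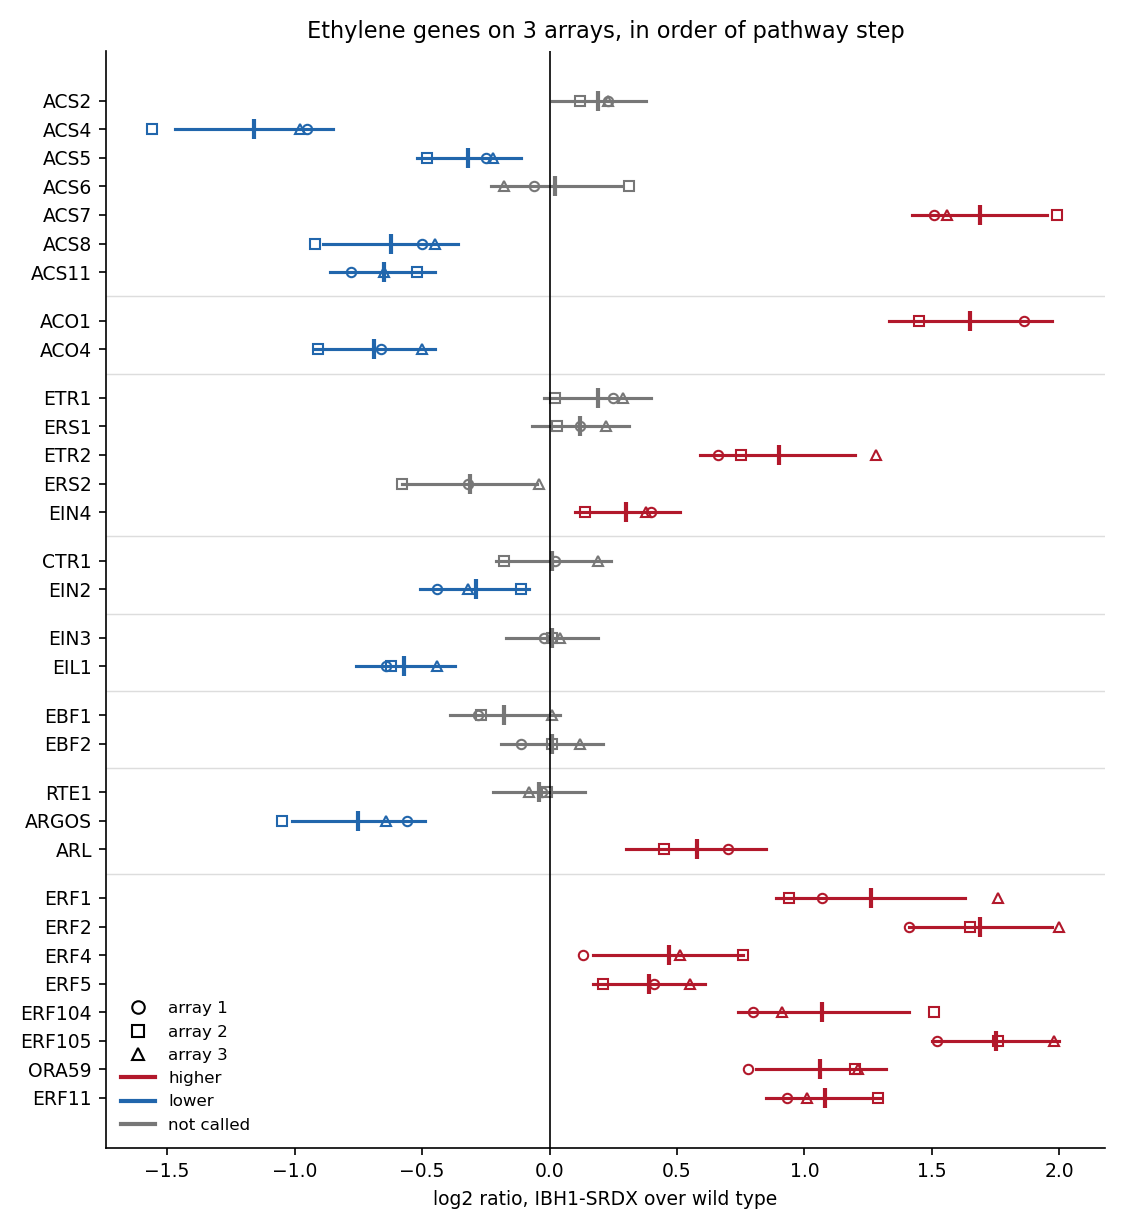
Log2 ratio of IBH1-SRDX over wild type (horizontal axis) for the 31 tested members, grouped by pathway step from synthesis at the top to ERF genes at the bottom. Open symbols are the 3 arrays, the vertical tick is the mean, the line is limma's 95% interval, and colour gives the call. All 8 ERF genes lie right of 0 on every array, with means between 0.39 and 1.75.

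Among ACC synthases, which set the pace of ethylene synthesis in many tissues, ACS7 was higher and 4 of the 7 tested genes were lower. ACS7 (AT4G26200) encodes a form with a short C-terminal tail. It had intensities of 8.41, 9.18 and 8.53 in IBH1-SRDX, against 6.90, 7.18 and 6.97 in wild type. The genotypes did not overlap, and ACS7 rose by 1.69 ± 0.11, or 3.22-fold (adjusted p = 0.000110). ACS4 (AT2G22810), a gene known for its induction by auxin, had intensities of 6.75, 6.20 and 6.94 in IBH1-SRDX, against 7.70, 7.76 and 7.92 in wild type. Again the genotypes were apart, with the lowest IBH1-SRDX value on array 2. That value was under 6.21, the weakest IBH1-SRDX signal on that array that stood well above background. ACS4 fell by 1.16 ± 0.13, a level 2.24-fold higher in wild type (adjusted p = 0.000823), a size that rests partly on this value.

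The other 3 lower ACC synthases changed less. ACS11 (AT4G08040) stood at -0.65 ± 0.09 (adjusted p = 0.00148), with -0.78, -0.52 and -0.65 on the arrays, and ACS8 (AT4G37770) at -0.62 ± 0.11 (adjusted p = 0.00499), with -0.50, -0.92 and -0.45. ACS5 (AT5G65800) stood at -0.32 ± 0.09 (adjusted p = 0.0262), and its intensities overlapped between genotypes. ACS4, ACS5, ACS8 and ACS9 encode synthases whose tail is recognised by ETO1 for degradation, a grouping made after the values were seen. ACS9 (AT3G49700) was well above background in neither genotype on any array and was not tested. ACS2 (AT1G01480) and ACS6 (AT4G11280), the forms stabilised by MAP kinase phosphorylation, were not called, with ACS2 at 0.19 (95% interval 0.01 to 0.38, adjusted p = 0.0940) and ACS6 at 0.02 (95% interval -0.23 to 0.28). ACS2 was called higher with a normexp offset of 10 (0.32, adjusted p = 0.0324), with the scanner software's log ratio (0.42, adjusted p = 0.0134) and with the authors' deposited values (0.29, adjusted p = 0.0356). The ACC synthase probes were dim, ACS6 apart, and IBH1-SRDX was well above background on 2 arrays for ACS4, 2 for ACS5 and 1 for ACS8, while wild type was so on all 3. ACS4, ACS5 and ACS8 thus passed the filter on dim probes only through wild type, where they were higher. They had no value when both genotypes had to be above background, and ACS11 was then still called lower.

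The size of these ratios differed between ways of preparing the signals. With the log ratio of the scanner software (Feature Extraction) they were 2.67 for ACS7, -2.44 for ACS4, -1.77 for ACS8, -1.48 for ACS11 and -1.03 for ACS5, each still called. With local backgrounds marked as outliers kept, ACS7 (adjusted p = 0.0560), ACS4 (-0.83, adjusted p = 0.0799), ACS11 (-0.38), ACS8 (-0.45) and ACS5 (-0.23) were not called. Median centring ended the calls of ACS11, ACS8 and ACS5, and ACS5 was also not called without replicate 1 (adjusted p = 0.0908).

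The ACC oxidase genes split as well. ACO1 (AT2G19590), a gene known to respond to low oxygen, had intensities of 13.88 and 13.72 in IBH1-SRDX on arrays 1 and 2, against 12.02 and 12.27 in wild type. Its spot on array 3 was marked as an outlier and left out of the fit, so its rise of 1.65 ± 0.13, or 3.15-fold, rests on 2 arrays (adjusted p = 0.000425). ACO4 (AT1G05010), the ethylene-forming enzyme listed in the reference as EFE, had intensities of 14.65, 14.67 and 14.92 in IBH1-SRDX, against 15.31, 15.57 and 15.43 in wild type. It fell by 0.69 ± 0.10 (adjusted p = 0.00215), with no overlap between genotypes, and was not called with median centring (adjusted p = 0.0817).

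In an alternative chosen after seeing the data, the spots marked as outliers were kept. ACO1 then had a ratio of 2.69 on array 3 and was again called higher (adjusted p = 0.000665). ARL, a gene described below, then had 0.88 on that array.

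**Figure D2:**
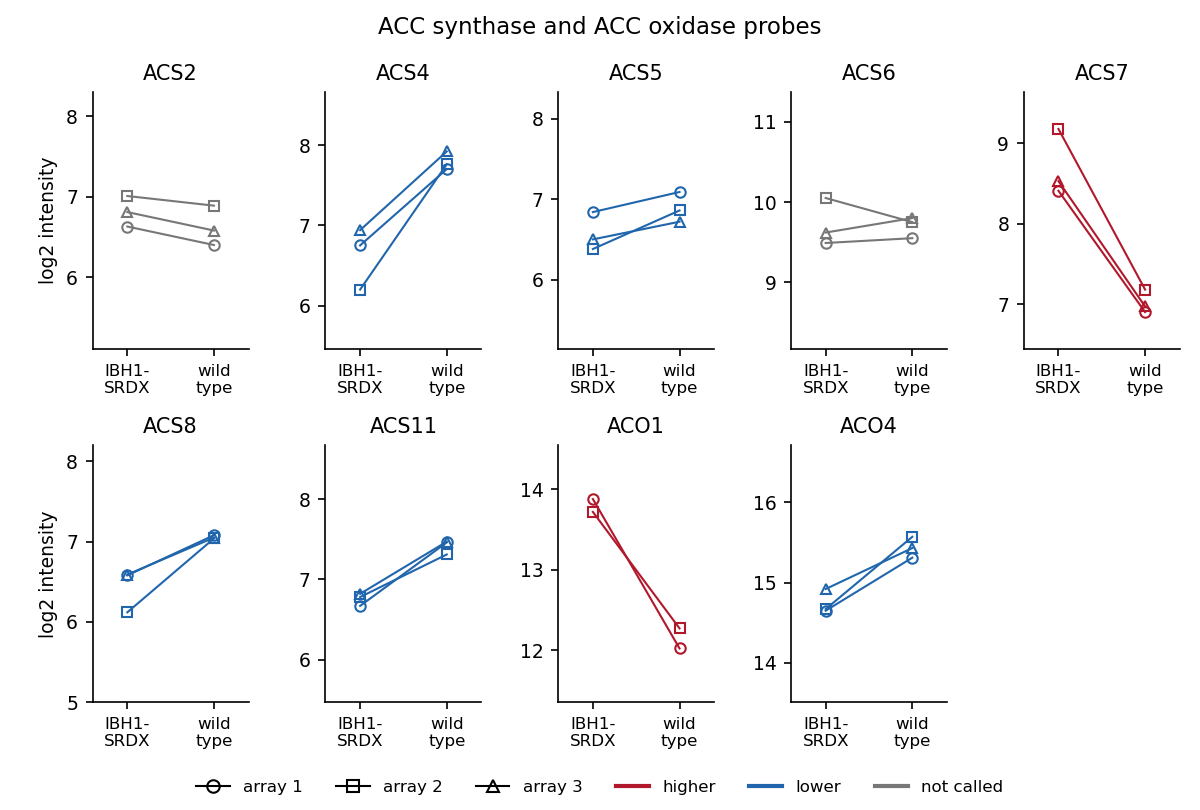
Normalised log2 intensity (vertical axes, each spanning the same number of log2 units) of the 9 tested ACC synthase and ACC oxidase probes in IBH1-SRDX and wild type, with a line for each array. The lines slope the same way on every usable array for ACS7, ACO1 and, slightly and not called, ACS2, higher in IBH1-SRDX, and for ACS4, ACS5, ACS8, ACS11 and ACO4, lower in IBH1-SRDX. Those of ACS6 slope both ways.

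Of the 5 receptors, ETR2 and EIN4 were higher and 3 were not called. ETR2 (AT3G23150) belongs to the receptors without a full histidine kinase motif and is known to be induced by ethylene itself. It had intensities of 12.11, 12.14 and 12.65 in IBH1-SRDX, against 11.45, 11.39 and 11.37 in wild type. The genotypes did not overlap, and ETR2 rose by 0.90 ± 0.13, or 1.86-fold (adjusted p = 0.00211), though it was not called with median centring (0.78, adjusted p = 0.153). EIN4 (AT3G04580), of the same subfamily, stood at 0.30 ± 0.09 (adjusted p = 0.0321). Its call ended without replicate 1 (0.26), without replicate 3 (0.27), with median centring, with outlier backgrounds kept, with the scanner software's log ratio and with the authors' deposited values.

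The 3 other receptors had small ratios. ETR1 (AT1G66340), the first hormone receptor identified in plants, stood at 0.19 (95% interval -0.02 to 0.40), ERS1 (AT2G40940) at 0.12 (95% interval -0.07 to 0.31) and ERS2 (AT1G04310) at -0.31 (95% interval -0.58 to -0.05, adjusted p = 0.0666). ETR1 was called without replicate 2 (0.27, adjusted p = 0.0337) and ERS2 without replicate 3 (-0.45, adjusted p = 0.00822), with a dye term and with the authors' deposited values. With the scanner software's log ratio ERS2 was not called (-0.35, adjusted p = 0.0798). ERS1 and ERS2, like ETR2, are known to be induced by ethylene.

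Downstream of the receptors, EIL1 and EIN2 were lower and CTR1 and EIN3 were not called. EIL1 (AT2G27050), the closest relative of EIN3, had intensities of 11.74, 11.79 and 11.98 in IBH1-SRDX, against 12.38, 12.41 and 12.42 in wild type. It fell by 0.57 ± 0.08, a level 1.48-fold higher in wild type (adjusted p = 0.00229), without overlap, and was not called with median centring (adjusted p = 0.260). EIN3 (AT3G20770) gave -0.02, 0.01 and 0.04 on the arrays and CTR1 (AT5G03730) gave 0.02, -0.18 and 0.19. The 95% interval was -0.17 to 0.19 for EIN3 and -0.21 to 0.24 for CTR1.

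EIN2 (AT5G03280), the membrane protein that relays the signal, stood at -0.29 ± 0.09 (adjusted p = 0.0419). That call was lost without replicate 1 (-0.22) and without replicate 3 (-0.28), with median centring, with outlier backgrounds kept, with a normexp offset of 10 and with the scanner software's log ratio. EBF1 (AT2G25490) and EBF2 (AT5G25350), the F-box proteins that send EIN3 and EIL1 to degradation, were not called. EBF2 stood at 0.01 (95% interval -0.19 to 0.21) and the brightest EBF1 probe at -0.18 (95% interval -0.39 to 0.04). The 3 EBF1 probes disagreed in sign. The brightest gave -0.28, -0.27 and 0.01, another gave -0.09, -0.28 and -0.19, and the dimmest gave 0.16, 0.14 and 0.97, with array 3 far above the others. EBF1 was called lower with the authors' deposited values (-0.33, adjusted p = 0.0348), whose median over all loci was -0.15. It was not called with the scanner software's log ratio (-0.20, adjusted p = 0.138).

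Of the modulators of ethylene sensitivity, ARGOS was lower, ARL higher and RTE1 not called. ARGOS (AT3G59900) promotes organ growth, is known for its induction by auxin and lowers ethylene sensitivity when overproduced. It had intensities of 10.62, 10.23 and 10.54 in IBH1-SRDX, against 11.19, 11.28 and 11.18 in wild type, and fell by 0.75 ± 0.11 (adjusted p = 0.00249). The genotypes did not overlap. Its relative ARL (AT2G44080), which promotes cell expansion and is known to respond to brassinosteroid, had intensities of 13.48 and 13.36 in IBH1-SRDX, against 12.78 and 12.91 in wild type, with array 3 left out as an outlier. ARL rose by 0.58 ± 0.11 on those 2 arrays (adjusted p = 0.00989), and was not called without replicate 1 (0.45, adjusted p = 0.127) or with the scanner software's log ratio (0.54, adjusted p = 0.0591). Neither was called with median centring. RTE1 (AT2G26070), which acts on the receptor ETR1, gave -0.03, -0.01 and -0.08 on the arrays (95% interval -0.22 to 0.14).

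All 8 tested ERF genes were higher in IBH1-SRDX, with a median of 1.08 and 6 of them at least 2-fold higher. The strongest were ERF105 and ERF2. ERF105 (AT5G51190) is one of 4 closely related activator-type members here, with ERF5, ERF6 and ERF104, that are known as early stress-responsive genes. It had intensities of 9.41, 9.83 and 9.89 in IBH1-SRDX, against 7.89, 8.07 and 7.92 in wild type. It rose by 1.75 ± 0.10, or 3.36-fold (adjusted p = 7.57e-05), and every IBH1-SRDX value was above every wild-type value. ERF2 (AT5G47220), an activator of defence genes, had 10.82, 11.36 and 11.31 in IBH1-SRDX, against 9.40, 9.71 and 9.31 in wild type. It rose by 1.69 ± 0.12, or 3.22-fold (adjusted p = 0.000139), also without overlap.

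ERF1 (AT3G23240) and ORA59 (AT1G06160), which join ethylene and jasmonate signals and switch on defensin genes, both rose. ERF1 had intensities of 8.10, 8.12 and 8.81 in IBH1-SRDX, against 7.04, 7.18 and 7.04 in wild type. Array 3 stood highest in IBH1-SRDX, the genotypes did not overlap, and the rise was 1.26 ± 0.16, or 2.39-fold (adjusted p = 0.00125). It was 1.93 with the scanner software's log ratio, and not called with outlier backgrounds kept (0.90, adjusted p = 0.0728). ORA59 had 10.70, 11.08 and 11.19 in IBH1-SRDX, against 9.91, 9.88 and 9.98 in wild type. That is a rise of 1.06 ± 0.11, or 2.09-fold, without overlap (adjusted p = 0.000526).

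ERF104 (AT5G61600), a substrate of the kinase MPK6, had intensities of 11.32, 11.78 and 11.26 in IBH1-SRDX, against 10.52, 10.27 and 10.35 in wild type. It rose by 1.07 ± 0.14, again over 2-fold (adjusted p = 0.00154), and the genotypes were apart on every array. ERF5 (AT5G47230) rose less, by 0.39 ± 0.09 (adjusted p = 0.0153), with 0.41, 0.21 and 0.55 on the arrays. ERF6 (AT4G17490), the remaining member of that subgroup, was well above background on 1 array in IBH1-SRDX and on none in wild type, and it was not tested.

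The repressors ERF4 (AT3G15210) and ERF11 (AT1G28370), which carry the EAR type of repression motif, were higher alongside the activators. ERF11 had intensities of 8.74, 8.98 and 8.85 in IBH1-SRDX, against 7.81, 7.69 and 7.83 in wild type. It rose by 1.08 ± 0.10, or 2.11-fold, with no overlap (adjusted p = 0.000334), and was not called with outlier backgrounds kept (0.81, adjusted p = 0.0536). ERF4 had ratios of 0.13, 0.76 and 0.51, lowest on array 1, and a mean of 0.47 ± 0.12 (adjusted p = 0.0234). The calls of ERF4 and ERF5 were the weakest of the group. Without replicate 2 ERF4 was not called (0.32, adjusted p = 0.0634), nor was ERF5 without replicate 1 (0.38, adjusted p = 0.0829) or without replicate 3 (0.31, adjusted p = 0.0745), and neither was called with median centring or with outlier backgrounds kept. With the authors' deposited values ERF4 was not called either (adjusted p = 0.0574). With outlier backgrounds kept 4 of the 8 were called higher, against 5.74% of all loci.

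**Figure D3:**
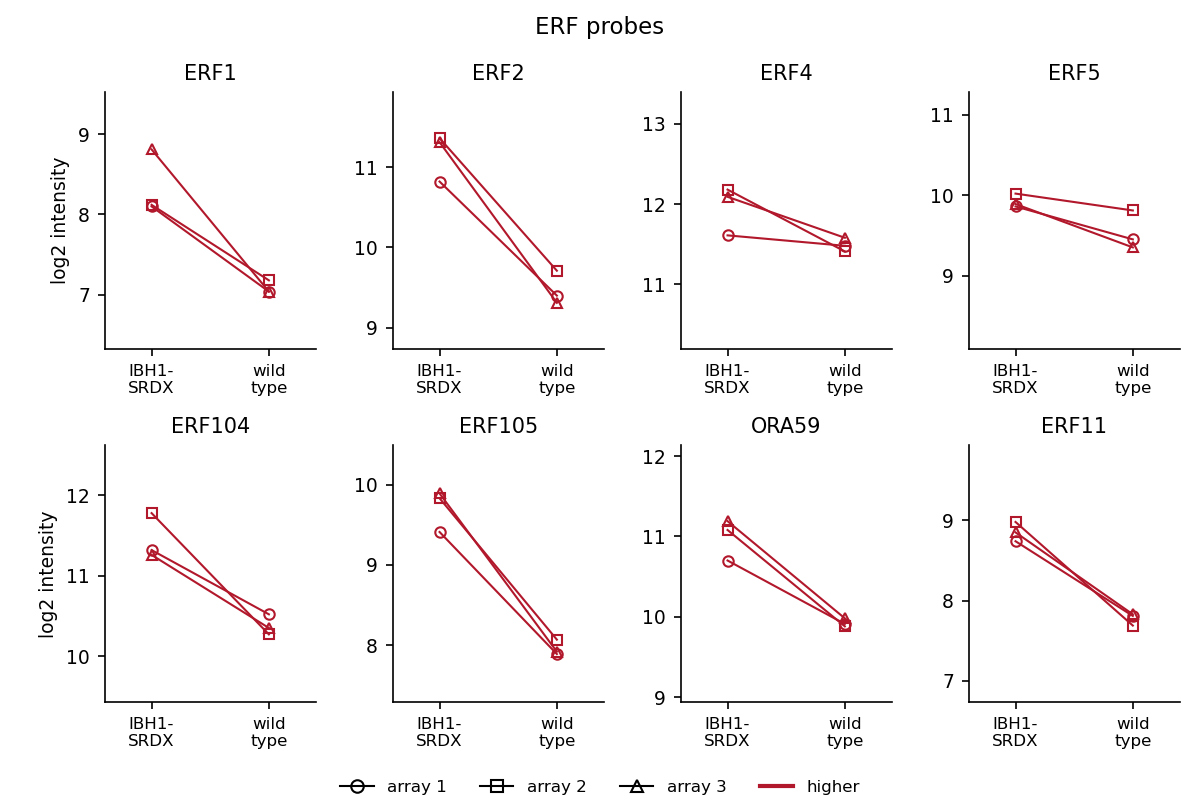
Normalised log2 intensity (vertical axes, each spanning the same number of log2 units) of the 8 tested ERF probes in IBH1-SRDX and wild type, with a line for each array. Every line falls toward wild type, steeply for ERF2 and ERF105 and least for ERF4 on array 1, where the ratio was 0.13.

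Of 10 early genes of touch, wounding and other stress 7 were higher, 0 lower and 3 not called. Over all tested loci 18.6% were higher and 19.9% lower. The early genes had medians of 0.99 on array 1, 1.81 on array 2 and 1.00 on array 3, beside 0.86, 1.25 and 1.11 for the ERF members. CML38, a calmodulin-like protein gene, stood at 3.21 ± 0.12, the transcription factor gene MYB51 at 1.88 ± 0.10, WRKY40 at 1.55 ± 0.17 and WRKY33 at 1.39 ± 0.17 (adjusted p between 2.64e-05 and 0.00115). The genes not called were TCH2 and TCH4, both induced by touch, and JAZ1, a jasmonate repressor gene. TCH3, a further touch gene of the list, was higher at 0.70 ± 0.11 (adjusted p = 0.00328). The part of such a response in the ERF values was not tested.

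Tissue markers were more often called lower than higher, though several root and green tissue markers were not called. Of the 12 root markers 7 were lower, 1 higher and 4 not called (median -0.40), all 10 xylem markers were lower (median -0.70), and of the 8 green tissue markers 4 were lower and 4 not called (median -0.40). Over all tested loci 19.9% were lower and 18.6% higher. CASP5, among the 7 lower root markers, was well above background on no IBH1-SRDX array. It passed the filter on dim probes only through wild type, where it was higher. With median centring 3 of the 12 root, 2 of the 10 xylem and 2 of the 8 green tissue markers were called lower, against 3.39% of all tested loci. What part tissue proportions have in any member's ratio was not tested.

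Other genes of the pathway, listed by known role, had 17 higher, 5 lower and 20 not called of 42 tested (46 listed), with a median of 0.22. The 17 include ERF10, ERF98, PDF1.2A and PDF1.2B, which passed the filter on dim probes only through IBH1-SRDX, where they were higher. Of all tested loci 18.6% were higher and 19.9% lower. Among these other genes, those of ethylene synthesis had 1 higher, 2 lower and 8 not called of 11, no larger shares than over all loci. ACO3 stood at 0.38 ± 0.09 (adjusted p = 0.0196), ACO5 at -0.56 ± 0.10 (adjusted p = 0.00539) and MAT4, which makes S-adenosylmethionine, at -0.34 ± 0.09 (adjusted p = 0.0214). ETO1, which marks ACC synthases for degradation, was not called (95% interval -0.47 to -0.01, adjusted p = 0.0957), and was called lower without replicate 2 (-0.32) and with the authors' deposited values (-0.41). With the scanner software's log ratio ETO1 was not called (-0.27, adjusted p = 0.101). ACO3 was not called without replicate 3 (0.28) or with the authors' deposited values (0.26), and MAT4 was not called without replicate 1 (-0.31) or without replicate 3 (-0.29). With outlier backgrounds kept ACO3 and MAT4 lost their calls, and with median centring ACO3, ACO5 and MAT4 did.

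Of 10 other signalling genes 4 were higher, 1 lower and 5 not called, against 18.6% of all tested loci higher and 19.9% lower. The kinase genes MKK9 and MPK3, of a cascade that stabilises ACC synthases, stood at 0.93 ± 0.08 (adjusted p = 0.000244) and 0.68 ± 0.08 (adjusted p = 0.000778). MPK3 gave 0.71, 0.68 and 0.66 on the arrays and MKK9 0.96, 0.89 and 0.93, among the tightest values here. RAN1, a copper transporter that readies the receptors for ethylene, stood at 0.40 ± 0.09 (adjusted p = 0.0143), and ETP1, an F-box protein that targets EIN2, at -0.50 ± 0.09 (adjusted p = 0.00554). Without replicate 1 or without replicate 3 RAN1 was not called (adjusted p = 0.0514 and adjusted p = 0.0820), nor was it called with outlier backgrounds kept or with the authors' deposited values. With median centring none of these 4 was called.

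Of 12 further tested ERF genes from groups VIII and IX, the subfamilies of the ERF members, 7 were higher, 2 lower and 3 not called. Over all tested loci the shares were 18.6% higher and 19.9% lower. With both genotypes required above background, 9 of the 12 were tested, with 5 higher and 2 lower. All loci tested that way had 18.4% higher and 20.2% lower. ERF98, well above background on 1 of 3 wild-type arrays, passed the filter on dim probes only through IBH1-SRDX, where it was higher. ERF15 stood at 1.04 ± 0.13, ERF1A at 0.86 ± 0.13 and ERF106 at 0.56 ± 0.09 (adjusted p between 0.00126 and 0.00386). ERF10 was well above background on no wild-type array and passed the filter on dim probes only through IBH1-SRDX. It stood at 0.60 ± 0.09 (95% interval 0.38 to 0.82), or 1.51-fold higher in IBH1-SRDX (adjusted p = 0.00307). Its log2 ratio was 2.51 with the scanner software's log ratio, and with outlier backgrounds kept it was 0.35 and not called (adjusted p = 0.114). The 2 lower genes, named after their values were seen, were the repressor genes ERF7 at -0.27 ± 0.08 and ERF8 at -0.28 ± 0.08. Neither was called without replicate 1 or without replicate 3. With median centring 0 of the 12 were called, and with outlier backgrounds kept 3 were higher and 0 lower. All loci then had 2.97% higher and 3.39% lower with median centring, and 5.74% and 9.65% with outlier backgrounds kept.

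Of 9 genes known to be induced by ethylene, 5 were higher, against 18.6% of all tested loci, and 4 not called. The defence genes PR4, at 1.65 ± 0.10 (adjusted p = 8.35e-05), and PR3, a chitinase gene at 1.18 ± 0.15 (adjusted p = 0.00130), were well above background in each genotype on all arrays. The defensin gene PDF1.2A gave 2.77, 3.92 and 1.02 on the arrays, a mean of 2.57 ± 0.46 (adjusted p = 0.00523), with wild type well above background on 2 of 3 arrays. It stood at 1.90 without replicate 2 and 3.35 without replicate 3. Its near copy PDF1.2B, in wild type well above background on 1 of 3 arrays, gave 2.35, 2.92 and 0.52, a mean of 1.93 ± 0.40 (adjusted p = 0.00898), or 2.64 without replicate 3. PDF1.2A and PDF1.2B passed the filter on dim probes only through IBH1-SRDX, where they were higher, and both are among the 5. Neither had a value when both genotypes had to be above background. PR4, PR3 and EDF3, the others of the 5, were then still called higher. With the authors' deposited values PDF1.2A stood at 4.09 and PDF1.2B at 4.37, and both were called. Neither defensin was called with a trended, robust variance (adjusted p = 0.0833 and adjusted p = 0.107) or with outlier backgrounds kept (adjusted p = 0.115 and adjusted p = 0.148). EDF3, like EDF1 and EDF4 a transcription factor gene, was higher at 0.32 ± 0.09 (adjusted p = 0.0242), but not called without replicate 1 (0.36), with median centring, with outlier backgrounds kept or with the authors' deposited values. EDF1 (0.33, adjusted p = 0.0665) and EDF4 (0.28, adjusted p = 0.0903) were not called, though without replicate 3 both were. EDF2 (0.14, adjusted p = 0.269) and HLS1 (0.03, adjusted p = 0.774) were not called either. ETR2, EBF2, ERS1 and ERS2 are members and are also known targets of ethylene. Of these ETR2 was called higher, while EBF2 (0.01), ERS1 (0.12) and ERS2 (-0.31) were not called, as described above.

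**Figure D4:**
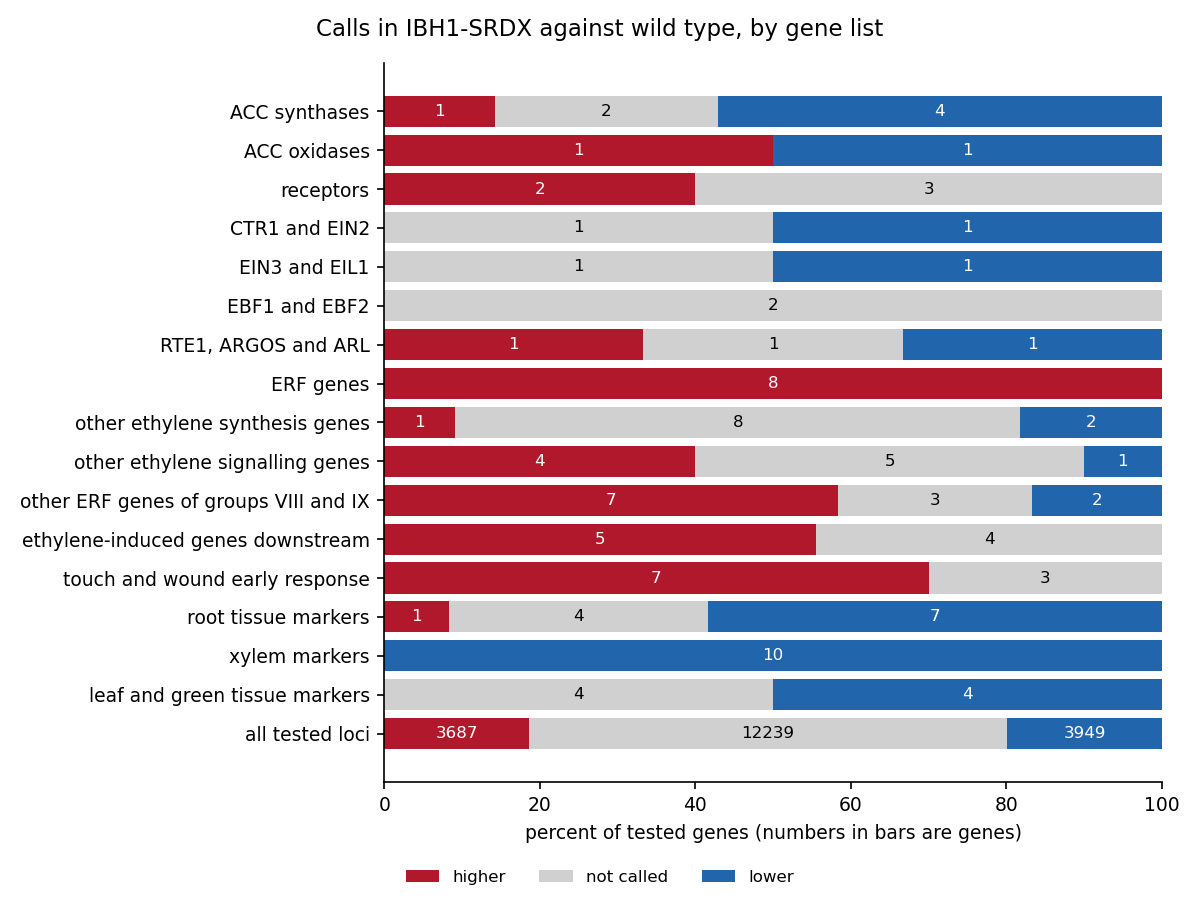
Percent of tested genes called higher, not called and called lower in IBH1-SRDX (horizontal axis), for each pathway step, the other pathway lists, the stress and tissue lists and all tested loci, with the number of genes in each bar. All 8 ERF members and 7 of 10 early stress genes are higher, and all 10 xylem markers are lower, beside 3687 loci higher and 3949 lower of 19875.

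Across the alternatives, the members whose log2 ratios had the widest ranges were ACS4 (-2.58 to -0.83), ACS7, ACS8 (-1.91 to -0.45), ACS11 (-1.62 to -0.38) and ERF1 (0.90 to 1.93). ERF2, ERF104, ERF105 and ORA59 were called higher under each of the 14 alternatives, and ACO1 under the 13 that gave it a value. The plot of ratios by setting shows the ACC synthase ratios deepening with the scanner software's log ratio and the authors' deposited values.

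**Figure D5:**
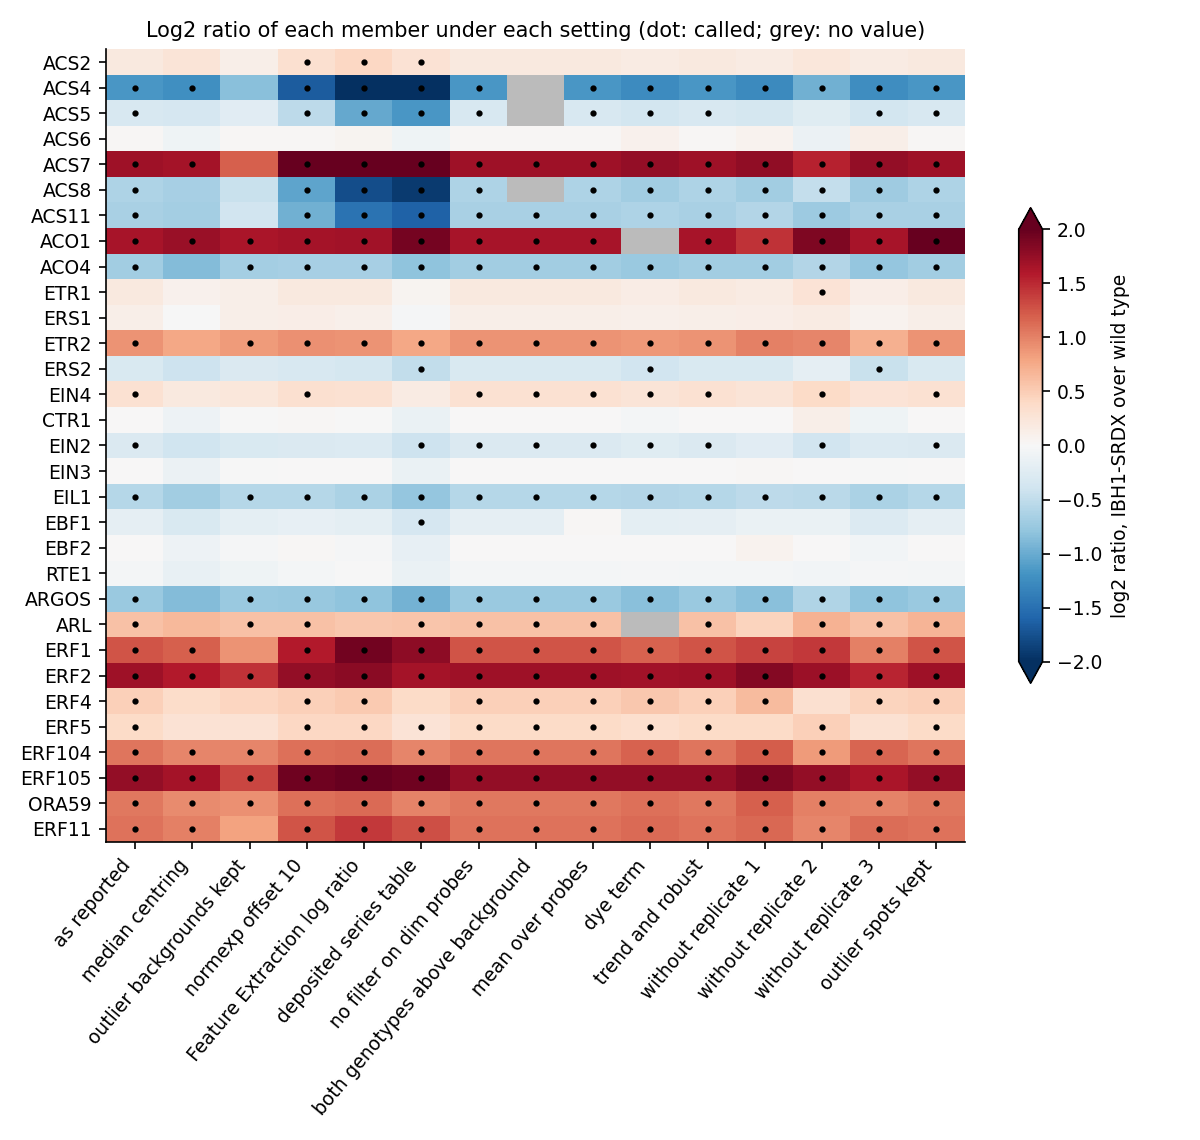
Log2 ratio of IBH1-SRDX over wild type (colour, limited to between -2 and 2) for the 31 tested members (rows) as reported and under each alternative (columns), with a dot where the gene was called and grey where no value could be had. ERF2, ERF104, ERF105 and ORA59 have a dot in every column, and ACS4 reaches -2.58 with the deposited series table, against -1.16 as reported.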

How the data were processed

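The deposited scanner files hold spot and background intensity (pixel medians) and a log10 ratio of Cy5 over Cy3, as the file headers name them. The submitters' processing notes name Agilent Feature Extraction 9.1.3.1. The deposited table of the whole series is on the natural log scale, as its slope of 1 on the scanner ratio of IBH1-SRDX over wild type showed on each array. It differs from that ratio by a constant of -0.0929, its medians are 0.00195, -0.225 and 0.00455, and how it was centred stays unknown.

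Backgrounds marked as outliers took their channel's median. Normexp (offset 50) and loess (control spots at weight 0) followed, and outlier spots (91 to 189 per array) were left out. Probes had to exceed background well on all 3 arrays in at least 1 genotype, and a locus took its brightest probe. Ratios, turned to IBH1-SRDX over wild type, were tested with limma 3.58.1 (lmFit, eBayes; R 4.3.3; 2 residual and 4.88 prior degrees of freedom), and the fit was tested on simulated data. The exact sign-flip p of 1 gene cannot go below 0.25. Of any dye bias 33.3% stays in a mean. With a dye term limma called 0 loci for dye at the adjusted threshold. An unadjusted p below 0.05 for dye was found at 3283 loci, or 16.7%, more than that threshold alone would give. Dye effects were therefore not shown to be absent. The dye term sets array 2 against arrays 1 and 3, so dye and replicate 2 cannot be told apart. Per-channel intensities are loess and Aquantile values.

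Symbols are common names, checked against the TAIR10.1 table, which holds all 34 loci. The result of 1 untested member is not reported here. Members and lists were chosen with earlier results of these data known. Members at least 2-fold different and called are given by array. Up to 4 called genes of smallest adjusted p are named from each other list. The exceptions, named after their values were seen, were ERF7, ERF8, ETO1, EDF1, EDF2, EDF3, EDF4, HLS1, ERF12, ERF98, ERF107, TCH2, TCH3, TCH4 and JAZ1. Probe sequences were not used here, so shared signal between close relatives (ACS, PDF1.2 and ERF genes) was not checked. Nothing used here says that replicates were grown apart, so p-values measure the spread between these samples, which may be technical.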

Additional observations from a re-analysis of the deposited data

How the results depend on the processing

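Of the 13 higher and 8 lower members, 8 and 1 were called with median centring, 7 and 3 with outlier backgrounds kept, and 13 and 5 with both genotypes required above background, where 28 members were tested. Of all loci, 2.97% were higher and 3.39% lower with median centring, and 5.74% and 9.65% with outlier backgrounds kept. With both genotypes required the shares were 18.4% and 20.2%. Of the ERF genes 4 were called with outlier backgrounds kept. Leaving out 1 replicate gave 10 to 13 higher, 6 to 8 lower and 7 ERF genes each time. Of all loci, 11.7% to 19.6% were then higher and 12.6% to 21.8% lower. Over all loci, 3687 higher and 3949 lower became 591 and 674 with median centring (median shift -0.10), 1141 and 1918 with outlier backgrounds kept, 2480 and 6369 with the deposited series table (median shift -0.15) and 2327 and 2502 without replicate 1. Higher loci made up 48.3% of calls, 37.3% with outlier backgrounds kept and 28.0% with the series table. The cause of these changes was not tested.

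No called member changed sign under 14 alternatives, 1 of them (outlier spots kept) chosen after seeing the data. Uncalled members that did, none of them called there, were ACS6 at -0.08 with median centring, -0.09 with the series table and -0.12 to 0.12 leaving out a replicate; ERS1 at -0.01 and -0.03 with the first 2 of these; and EBF1 at 0.02 with the mean over probes. CTR1 stood at -0.10 with median centring, -0.01 with outlier backgrounds kept and also with the scanner software's log ratio, -0.14 with the series table, -0.04 with a dye term and -0.08 to 0.11 leaving out a replicate. EIN3 stood at -0.11, -0.01, -0.13 and -0.01 with median centring, outlier backgrounds kept, the series table and without replicate 3. EBF2 stood at -0.10, -0.02, -0.03 and -0.16 with median centring, outlier backgrounds kept, the scanner software's log ratio and the series table, and at -0.05 to 0.07 leaving out a replicate. ERF12, a neighbour of ERF11, stood at -0.08 with the series table and -0.01 to 0.15 leaving out a replicate. ERF2, ERF104, ERF105, ORA59, ACO1 and RTE1 kept their call or lack of one in every alternative that gave a value, with none for ACO1 under the dye term. The test was itself paired, since each ratio was taken within the array that holds both genotypes of a replicate.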

Other observations

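Several ERF genes lie next to another gene of the ethylene lists. In the TAIR10.1 annotation, 5 pairs of listed ethylene genes had no protein-coding gene between them, and ERF members are in 4 of these. ERF11 stood at 1.08 ± 0.10 (adjusted p = 0.000334) and its neighbour ERF12, also of group VIII, at 0.08 ± 0.09 (adjusted p = 0.517). ERF104 stood at 1.07 ± 0.14 (adjusted p = 0.00154) and its neighbour ERF107 at 0.22 ± 0.10 (adjusted p = 0.145). ERF1 stood at 1.26 ± 0.16 (adjusted p = 0.00125) and its neighbour ERF98 at 0.38 ± 0.09 (adjusted p = 0.0141), which in wild type cleared background on 1 of 3 arrays, and which was not called without replicate 3 (0.34, adjusted p = 0.0514). ERF6, too dim to test, lies beside ERF1A at 0.86 ± 0.13 (adjusted p = 0.00289). Differences between neighbours were not tested, and levels were not compared between probes.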
